A study of Mus musculus with 4 samples.

Results

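A set of 7 genes of vitamin A metabolism, Adh1, Adh6a, Aldh1a1, Rbp2, Rbp4, Rdh7 and Crabp2, were followed through mouse intestinal epithelium, out of the 31054 features that the count matrices list. The 7 members were picked for their known place in retinol and retinoid handling, and in part because Adh6a was lower after irradiation. That difference is therefore given as a description, and the other members' values in the same contrast are described in the same way. A row for each of the 7 members is present in all 4 matrices.

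RNA was counted in single cells sorted from the intestine of mice that carry Bmi1-GFP, a reporter that labels cells transcribing the Bmi1 locus. There was 1 library from embryos at day 12.5 of gestation (E12.5), 1 from embryos at day 17.5 (E17.5), 1 from adults, and 1 from adults after irradiation, all of the Bmi1-GFP genotype. The labels used here do not give the dose of irradiation, the time after it, the number and sex of the animals or the sorting gates. With 1 library per group no spread between animals can be had, so no difference below carries a test, and each ratio compares these libraries only.

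Retinol reaches cells from the diet or, bound to the carrier Rbp4, from blood. Inside the enterocyte it is held by Rbp2 and esterified by Lrat for export in chylomicrons. Alcohol dehydrogenases and retinol dehydrogenases oxidise retinol to retinal, Aldh1a enzymes turn retinal into retinoic acid, and Crabp2 carries retinoic acid to its nuclear receptors, the RARs. Retinoic acid patterns the embryonic gut, and in the adult the absorptive epithelium is among the sites that handle retinoids.

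After filtering, the libraries kept 4050, 4409, 3597 and 3031 cells in the order above, with medians of 18082, 11003, 3607 and 8554 UMIs per cell. A UMI, or unique molecular identifier, is counted once per RNA molecule caught. Any pair of libraries shared between 6 and 12 cell barcodes. Epithelial cells numbered 3871, 3476, 3597 and 3031. The labelled epithelium held its defining markers in every library, with 8 of 8 general epithelial genes detected. Non-epithelial clusters were left out of the epithelial totals, namely 179 cells with pancreatic progenitor or mesenchymal markers at E12.5 and 933 with pancreatic, mesenchymal, smooth muscle or mesothelial markers at E17.5. The sorted cells differed in make-up: enteroendocrine-like cells were 42.1% of epithelial cells at E17.5, 61.8% in the adult and 66.6% after irradiation, whereas enterocyte-like cells were 24.3%, 1.64% and 3.1%. These shares follow the names of clusters. Of the 94 irradiated enterocyte-like cells, 14 had 1% or more of their UMIs from the 10 enterocyte markers. In the adult 53 of 59 did, and at E17.5 438 of 846. Every total below is therefore given with its cell classes, and a level over all epithelial cells cannot be told apart from the share of each class in the sort.

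The sequences just before the transcript start are shown for Adh6a and Rbp2, the members with the largest levels in adult enterocyte-like cells. They are 250 upstream bases on the + strand of GRCm38.p6, from RefSeq, at chr3:138313036-138313285 for Adh6a and chr9:98490287-98490536 for Rbp2. Neither window overlaps an annotated exon. The Adh6a window ends at the start of the gene as placed below. The Rbp2 window lies inside its gene, which begins further upstream at chr9:98486115, so the start used there is an internal RefSeq one. Capitals mark TATAAA, the core promoter element, and AGGTCA, the core motif that nuclear receptors bind, on either strand (TTTATA and TGACCT in reverse).

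Adh6a: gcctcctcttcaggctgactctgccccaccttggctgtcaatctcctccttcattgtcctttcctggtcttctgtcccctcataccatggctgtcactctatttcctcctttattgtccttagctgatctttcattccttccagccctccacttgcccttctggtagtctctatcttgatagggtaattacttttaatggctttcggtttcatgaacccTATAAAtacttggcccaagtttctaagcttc

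Rbp2: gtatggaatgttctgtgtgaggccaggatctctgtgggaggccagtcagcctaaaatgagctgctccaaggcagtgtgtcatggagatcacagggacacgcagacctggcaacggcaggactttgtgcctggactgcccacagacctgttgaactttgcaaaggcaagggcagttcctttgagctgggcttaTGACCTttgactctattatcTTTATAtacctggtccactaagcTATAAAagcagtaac

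In Adh6a the TATAAA begins 31 bases before the start. In Rbp2 it begins 15 bases before the start and again, in reverse, at 38, and the reverse of AGGTCA lies at 58. Over 32851 windows of the same length, 12.4% held TATAAA and 14.0% held AGGTCA on either strand, each motif counted on its own. A match describes letters only. RefSeq held an entry for 6 of the 7 members, all but Crabp2.

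Adh1 and Adh6a are neighbours on chromosome 3 of GRCm38, at chr3:138260991-138290698 and chr3:138313286-138331134, both on the + strand. The other members lie apart: Crabp2 at chr3:87948666-87953376 (+), Rbp2 at chr9:98486115-98509781 (+), Rbp4 at chr19:38116629-38125281 (-), Aldh1a1 at chr19:20492715-20643465 (+) and Rdh7 at chr10:127884028-127888817 (-). All 7 are protein-coding genes. None of the 50-base words in the last 500 bases of each member's longest transcript occurred in a transcript of another gene, so the ends that this 3' assay reads did not overlap with those of close relatives.

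Across the 4 libraries the members followed 3 patterns. Levels are CPM, UMIs per 1000000 UMIs summed over the epithelial cells of a library, and the order given is E12.5, E17.5, adult and irradiated adult. Rbp4, which encodes the carrier of retinol in blood, was high throughout, at 610, 786, 742 and 576 CPM. Crabp2, which encodes the cellular carrier of retinoic acid, was present at E12.5 only, at 26.1 CPM, against 0.177 CPM (11 UMIs) at E17.5, 0 UMIs in the adult and 2 UMIs after irradiation. The remaining 5 members were low at E12.5, higher at E17.5 and highest in the adult library. Rbp2, the retinol-binding protein of the absorptive cell, was at 11.0, 442, 469 and 303 CPM, so that nearly all of its difference lay between the embryonic stages. Adh1, an alcohol dehydrogenase active on retinol, stood at 1.08, 38.9, 303 and 255 CPM. Adh6a, a relative of Adh1, stood at 0.0633 CPM (5 UMIs), 4.17, 145 and 23.6 CPM. These alcohol dehydrogenases were thus highest in the adult library, and of the pair only Adh6a was much lower after irradiation. Aldh1a1, which oxidises retinal to retinoic acid, was at 0.532, 21.2, 28.9 and 15.0 CPM. Rdh7, a retinol dehydrogenase of the short-chain family, had 0 UMIs at E12.5 (3 UMIs would be 0.0380 CPM), then 1.48, 27.6 and 13.7 CPM. Exact Poisson 95% intervals, which cover counting error only, were narrow for abundant members, for example 140 to 149 CPM for Adh6a in the adult and 22.1 to 25.2 CPM after irradiation.

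**Figure D1:**
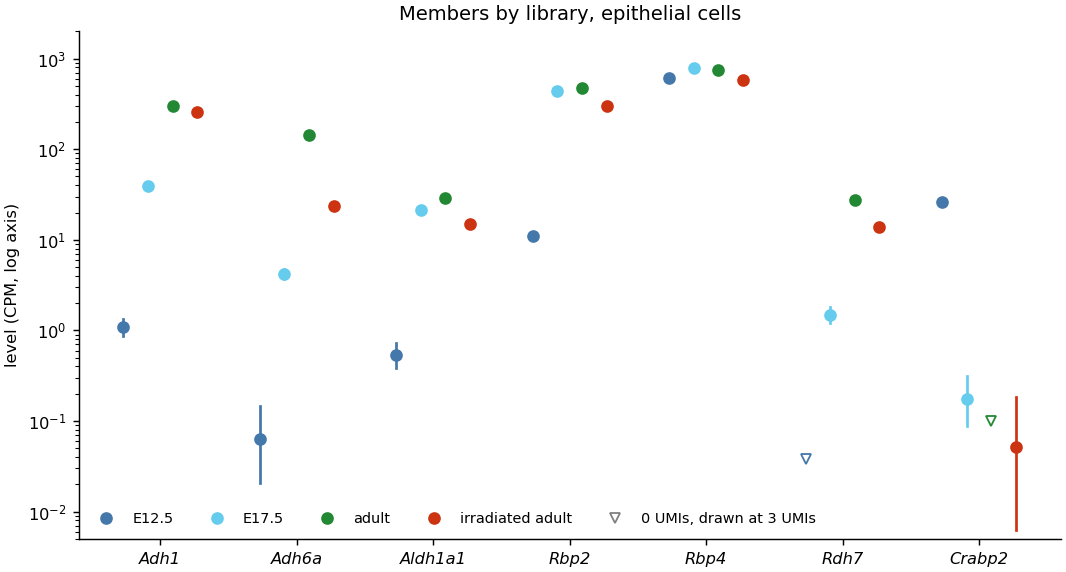
Level of each member over all epithelial cells of a library (CPM on a log axis), with points for the 4 libraries and bars for exact Poisson 95% intervals; open triangles mark 0 UMIs, drawn at the level of 3 UMIs. Rbp4 stays between 576 and 786 CPM, Crabp2 is at 26.1 CPM at E12.5 and under 1 CPM later, and the other 5 members are highest in the adult library.

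Between E12.5 and E17.5, 5 members were at least 2-fold higher and 1, Crabp2, was at least 2-fold lower at E17.5, so 6 of 7 were 2-fold apart. Of the 16631 genes that reached 10 UMIs in 1 of the pair, 28.0% were 2-fold apart, 13.5% higher and 14.6% lower. Ratios are log2((CPM + 1)/(CPM + 1)), which understates the change of low genes. Rbp2 was higher by a log2 ratio of 5.20, Adh1 by 4.26, Aldh1a1 by 3.86 and Adh6a by 2.28. Rdh7 was at least 39.0-fold higher at E17.5, with 3 UMIs taken for the 0 at E12.5. Crabp2 fell by 4.52 on the log2 scale. Rbp4 differed by 0.36 only, beside a median of -0.14 over all genes tested and 2.28 over the 7 members.

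Between E17.5 and the adult, 3 of 7 members were at least 2-fold higher and none was lower, beside 25.1% of 15985 genes 2-fold apart, 12.5% higher and 12.6% lower. These 3 were the members of the alcohol and retinol dehydrogenase families: Adh6a (log2 ratio 4.82), Rdh7 (3.53) and Adh1 (2.93). The binding proteins Rbp2 (0.09) and Rbp4 (-0.08) were close to level over all epithelial cells, and Aldh1a1 stood at 0.43. The median over all genes tested was -0.06. The adult cells were shallower than the E17.5 cells, with a median of 3607 against 11624 UMIs per epithelial cell.

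The level totals hide strong differences between cell classes. Classes were built from clusters within each library, made without the retinoid genes and named from fixed markers, and a cluster is called X-like for its markers. In the adult, enterocyte-like cells had the highest level of Rbp2, Adh6a, Aldh1a1 and Rdh7, tuft-like cells of Adh1, and enteroendocrine-like cells of Rbp4. After irradiation the same classes led by CPM for Rbp2, Aldh1a1, Adh1 and Rbp4, while Rdh7 was highest in enteroendocrine-like cells and Adh6a in the unnamed clusters, at 96.6 CPM.

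**Figure D2:**
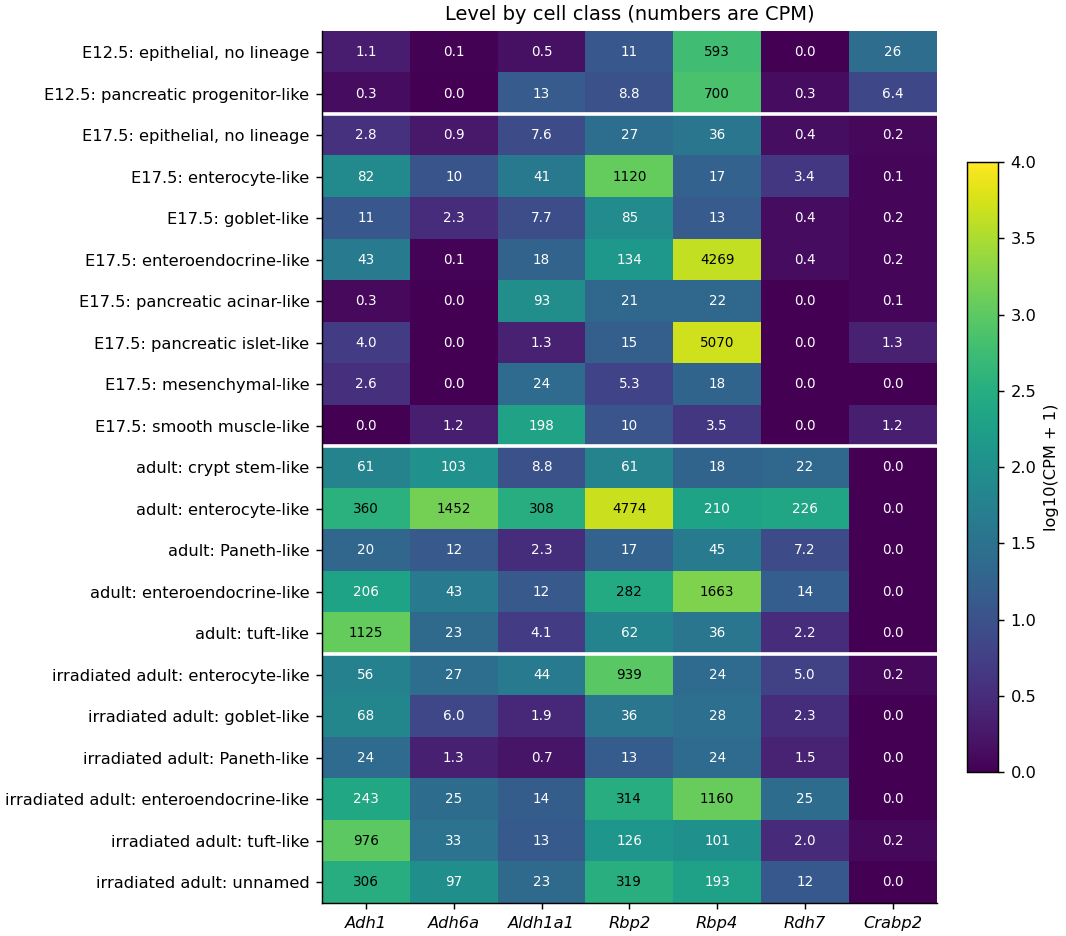
Level of each member by cell class and library; the colour is log10(CPM + 1) and the printed number is the CPM of summed UMIs, for classes of at least 50 cells. Enterocyte-like rows are bright for Rbp2 at each stage and for Adh6a in the adult only, tuft-like rows for Adh1, and enteroendocrine-like and pancreatic islet-like rows for Rbp4.

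Rbp2 was the retinoid gene of the absorptive cells. In enterocyte-like cells it reached 1120 CPM at E17.5 (846 cells), 4774 CPM in the adult (59 cells) and 939 CPM after irradiation (94 cells). Those cells held 90.6%, 68.9% and 40.2% of all epithelial Rbp2 UMIs. The irradiated level was carried by few cells, since 12 of the 94 held 4253 of the 4715 UMIs and the median cell was at 25.2 CPM. Enteroendocrine-like cells held more Rbp2 UMIs after irradiation, 5747, at 314 CPM, and a higher thinned share, 29.5% against 22.2%. When cells were cut down at random to an equal 2000 UMIs, Rbp2 was found in 53.5% of enterocyte-like cells at E17.5, 94.1% in the adult and 22.2% after irradiation. Without thinning the shares were 87.5%, 96.6% and 71.3%, at medians of 27000, 31047 and 50536 UMIs per cell, and 76, 8 and 4 cells under 2000 UMIs had no thinned value. In Paneth-like cells, given for comparison, the thinned share was 11.1% in the adult and 2.27% after irradiation, at medians of 2947 and 99299 UMIs (70 and 4 cells left out). The level of free RNA in the droplets was not estimated. Within E17.5, Rbp2 was at 307 CPM in the cluster of 456 enterocyte-like cells led by Apoa1, at 2474 CPM in the one of 303 cells led by Fabp1 and at 4878 CPM in the one of 87 cells led by Apoa4.

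Rbp2 had a second site, the endocrine cells whose main hormone gene was Gip, the incretin of K cells. There it was at 788 CPM at E17.5 (98 cells), 672 CPM in the adult (1063 cells) and 1437 CPM after irradiation (471 cells). In Tph1-positive cells, which make serotonin, Rbp2 was at 115, 93.9 and 112 CPM. In Sst cells it was at 17.7, 68.1 and 56.3 CPM. Gip cells were thus the highest of the hormone types for Rbp2 in all 3 libraries, and their thinned share with a UMI was 70.2%, 48.8% and 77.9%, against 85.7%, 50.7% and 75.4% unthinned.

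Rbp4 was an endocrine gene after E12.5. Enteroendocrine-like cells held 97.4% of epithelial Rbp4 UMIs at E17.5, 96.0% in the adult and 95% after irradiation. Their level fell along this order, from 4269 to 1663 and 1160 CPM. Enterocyte-like cells were at 17.1, 210 and 24.3 CPM, tuft-like cells of the adult at 35.6 CPM. The 139 pancreatic islet-like cells of the E17.5 library, which are no part of the epithelial total, were at 5070 CPM. The thinned share of enteroendocrine-like cells with an Rbp4 UMI was 68.6%, 53.5% and 51.3%, and 76.4%, 59.8% and 59.1% unthinned, at medians of 7340, 3188 and 8554 UMIs (39, 488 and 324 cells left out). In Paneth-like cells the thinned share was 22.9% in the adult and 4.55% after irradiation.

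Among hormone types at E17.5, Rbp4 was highest in Sst cells, which make somatostatin, at 11256 CPM (53 cells). Gip cells followed at 6840, Cck cells at 6756, Pyy cells at 5449 and Ghrl cells at 4896 CPM, and Tph1-positive cells (1856) and Nts cells (1336) were lowest. In the adult the order had changed: Gip cells led at 2786 CPM, then Cck at 1867, Sst at 1208, Tph1 at 748 and Nts at 620 CPM. After irradiation Cck cells stood at 1754, Gip cells at 1592, Tph1-positive cells at 843 and Sst cells at 836 CPM. Of the 5 types held by both the E17.5 and the adult library, Sst cells differed most between them, and the neighbours Gip and Cck at E17.5 differed little.

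Within enteroendocrine-like cells, 5 of 6 members were at least 2-fold apart between E17.5 and the adult, 4 higher in the adult and 1 lower. Beside them, 21.7% of 14126 genes were 2-fold apart, 11.4% higher and 10.3% lower. Rbp4 fell by 1.36 on the log2 scale. Rdh7 was higher by 3.51, Adh1 by 2.25 and Rbp2 by 1.06, and Aldh1a1 was at -0.52. Adh6a had 1 UMI at E17.5 and 549 in the adult, with a counting interval of 6.42 to 14.21 for the log2 ratio. The share of adult enteroendocrine-like cells with an Adh6a UMI was no higher than that of Paneth-like cells, though the CPM was higher. The part of background RNA in this difference was not tested.

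At E12.5 Rbp4 was spread over the whole epithelium. The 3860 epithelial cells without a lineage were at 593 CPM, and all 11 of their clusters held it, from 326 to 1484 CPM, the highest being a cluster of 71 cells led by Sh3bgr, Wnt6 and Sfn. A single cluster of 11 enteroendocrine-like cells with Gcg and Pyy was at 7395 CPM. Pancreatic progenitor-like cells stood at 700 CPM and the 36 mesenchymal-like cells at 18.6 CPM (5 UMIs). At E17.5, epithelial cells without a lineage were at 35.9 CPM, so that the broad epithelial level was lower while the endocrine level was high.

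**Figure D3:**
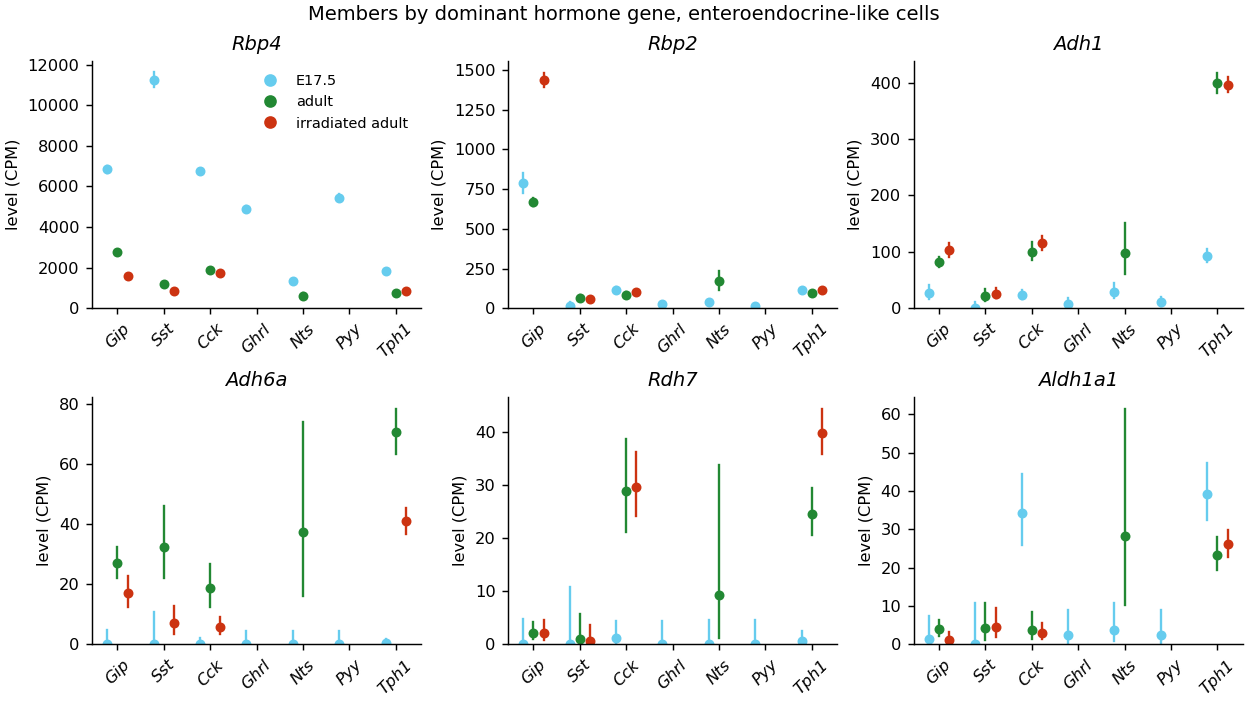
Level (CPM) of 6 members in enteroendocrine-like cells grouped by dominant hormone gene, or by Tph1, at E17.5, in the adult and after irradiation, for groups of at least 50 cells; bars are exact Poisson 95% intervals and each panel has its own axis from 0. Rbp4 is highest at E17.5 in every type drawn, Rbp2 stands out in Gip cells, and Adh1 in Tph1-positive cells at about 400 CPM in both adult libraries.

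Adh1 was highest in tuft-like cells, the chemosensory cells of the epithelium. It stood at 1125 CPM in 973 adult cells and at 976 CPM in 478 irradiated cells, and a UMI was found in 90.6% and 93.1% of them (82.9% and 80.0% after thinning, at medians of 4111 and 7015 UMIs, with 73 and 52 cells left out). In Paneth-like cells the thinned shares were 11.8% and 3.41%. Tuft-like cells held 57.4% of epithelial Adh1 UMIs in the adult and 43.6% after irradiation. All 4 adult tuft-like clusters lay between 791 and 1256 CPM. No tuft-like cluster was found in either embryonic library, where tuft markers summed to 2.69 and 4.46 CPM.

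The second site of Adh1 was the Tph1-positive endocrine cell. It was at 92.9 CPM there at E17.5, 399 in the adult and 396 after irradiation, against 100.02 and 115 CPM in Cck cells, 82.3 and 103 in Gip cells and 21.99 and 26.2 in Sst cells of the adult libraries. The thinned share of Tph1-positive cells with an Adh1 UMI was 18.7%, 43.4% and 49.8%, and 35.0%, 67.6% and 82.0% unthinned. At E17.5, enterocyte-like cells held 75.3% of the Adh1 UMIs, at 81.9 CPM. Adult enterocyte-like cells were at 360 CPM and irradiated ones at 56.2 CPM.

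Adh6a differed from Adh1 in where it was found. In the adult, 2934 of 4309 Adh6a UMIs (68.1%) came from the 59 enterocyte-like cells, at 1452 CPM. The 24 cells richest in Adh6a held 50% of its UMIs, and the highest single cell held 277. The 128 crypt stem-like cells, a cluster led by the proliferation genes Mki67, Ube2c and Top2a, held 15.6% at 103 CPM. Enteroendocrine-like cells were at 43.0, tuft-like at 23.2 and Paneth-like at 12 CPM. After thinning, Adh6a was found in 94.1% of enterocyte-like, 14.9% of crypt stem-like, 6.74% of enteroendocrine-like, 4.22% of tuft-like and 7.64% of Paneth-like adult cells. The unthinned shares were 96.6%, 61.7%, 13.5%, 8.94% and 17.8%, at medians of 31047, 47133, 3188, 4111 and 2947 UMIs. The shares in enteroendocrine-like and tuft-like cells were thus no higher than in Paneth-like cells, while their CPM was higher. The part of background RNA in these values was not tested. Within endocrine cells the level was uneven, with 70.8 CPM in Tph1-positive cells (a thinned share of 9.84%) against 18.7 in Cck and 27.0 in Gip cells. At E17.5 enterocyte-like cells held 225 of 259 UMIs at 10.1 CPM, and the 1464 enteroendocrine-like cells held 1 UMI.

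Rdh7 and Aldh1a1 shared the adult enterocyte-like site. Rdh7 was at 226 CPM there and at 21.8 CPM in crypt stem-like cells, and Aldh1a1 was at 308 and 8.77 CPM. Rdh7 also stood at 73.8 CPM in an adult endocrine cluster of 299 cells led by Nts, Cck and Scg2, and at 121 CPM in an irradiated endocrine cluster of 210 cells led by Rbp4, Pzp and Cck. By hormone type it was at 29.0 CPM in adult Cck cells, 24.7 in Tph1-positive cells and 2.19 in Gip cells. Aldh1a1 was at 23.3 CPM in adult Tph1-positive cells and 3.89 in Gip cells. Outside the epithelium at E17.5, Aldh1a1 was at 198 CPM in smooth muscle-like and 92.9 CPM in pancreatic acinar-like cells, both above the 40.5 CPM of enterocyte-like cells.

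Crabp2 was held by the E12.5 epithelium, with 2057 of 2058 epithelial UMIs in cells without a lineage. All 11 of their clusters held it, from 15.0 to 49.6 CPM. The highest was a cluster of 402 cells led by Postn, with Hoxb9, a homeobox gene of the posterior body, among its top genes. No cell held more than 8 Crabp2 UMIs. It had a UMI in 34.3% of all E12.5 epithelial cells (5.03% after thinning, at a median of 18251 UMIs), against 9.79% of pancreatic progenitor-like cells (3.17% after thinning, at 16043). At a level of this size the thinned share lies near that of single UMIs.

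After irradiation the members' ratios to the adult library varied between cell groups. The lowest were in epithelial cells outside the enteroendocrine-like and tuft-like classes, a group whose make-up differed between the libraries. Over all epithelial cells 1 of 6 members with enough UMIs was at least 2-fold apart, Adh6a, beside 7.36% of 15157 genes, 2.59% higher and 4.78% lower. Because that contrast chose Adh6a, nothing is read from the count. Adh6a was 5.92-fold lower, a log2 ratio of -2.57, with a counting interval of -2.72 to -2.51 for the ratio without the added 1. Just short of 2-fold were Rdh7 at -0.96 and Aldh1a1 at -0.91, followed by Rbp2 at -0.63, Rbp4 at -0.36 and Adh1 at -0.25. The median over all genes tested was -0.04.

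By cell class the picture was not uniform. In enteroendocrine-like cells none of 6 members was 2-fold apart, beside 4.01% of 13972 genes (1.35% higher and 2.66% lower). Adh6a went from 43.0 to 24.5 CPM (log2 ratio -0.78), Rbp4 from 1663 to 1160 (-0.52) and Rdh7 from 14.49 to 25.2 (0.76). Adh1 (0.23), Aldh1a1 (0.19) and Rbp2 (0.16) were close to level. Adh6a was lower in each of the 4 hormone types that both libraries hold, from 70.8 to 41.0 CPM in Tph1-positive, 27.0 to 17.1 in Gip, 18.7 to 5.96 in Cck and 32.5 to 7.2 in Sst cells. In the adult the share of the class with an Adh6a UMI was no higher than that of Paneth-like cells, as given above. Rbp2 in Gip cells went from 672 to 1437 CPM.

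In other epithelial cells, those outside the endocrine and tuft-like classes, 4 of 6 members were at least 2-fold lower, beside 22.1% of 13053 genes 2-fold apart, 12.3% lower and 9.73% higher. Adh6a, chosen for its lower level after irradiation, is among the 4, so nothing is read from this count either. Adh6a went from 294 to 20.01 CPM (log2 ratio -3.81), Rdh7 from 50.4 to 3.80 (-3.42), Aldh1a1 from 55.4 to 16.8 (-1.66) and Rbp2 from 813 to 339 (-1.26). Rbp4 (-0.44) and Adh1 (-0.46) differed less. The class is not the same in both libraries: of 534 irradiated cells, 264 were in 3 unnamed clusters whose enteroendocrine markers summed to 80376 CPM. Without those clusters Adh6a was at 10.9 and Rdh7 at 2.86 CPM after irradiation. Crypt stem-like cells were then still in the adult class only, and goblet-like cells in the irradiated class only.

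The enterocyte-like clusters held most of the adult UMIs of Adh6a, Rdh7, Aldh1a1 and Rbp2, and they did not match between the libraries. All 10 enterocyte markers were lower in the 94 irradiated cells than in the 59 adult cells, and their sum went from 40889 to 6574 CPM. The irradiated cluster was led by Apoa4, Ccnd1, Ces2e and Prap1 and held crypt stem markers at 487 CPM against 39.6. Adh6a there was at 26.7 CPM, Rdh7 at 4.98, Aldh1a1 at 44.2 and Rbp2 at 939. With these clusters left out of both libraries, Adh6a over all epithelial cells was at 49.5 CPM in the adult and 23.1 after irradiation (log2 ratio -1.07), Rbp2 at 156 and 208, Rdh7 at 13.1 and 15.0, and Aldh1a1 at 8.60 and 10.6. In other epithelial cells without these clusters the log2 ratio was -1.96 for Adh6a, -2.02 for Rdh7, -0.45 for Aldh1a1 and 0.54 for Rbp2. The cells left did not match either. In the adult they were 128 crypt stem-like cells, with 672 Adh6a and 142 Rdh7 UMIs, and 214 Paneth-like cells, with 47 and 28. After irradiation no cluster was named crypt stem-like, and goblet-like, Paneth-like and unnamed cells were left. These ratios therefore cannot be told apart from class make-up. The part of enterocyte maturity in the difference was not tested.

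The few irradiated cells that were rich in enterocyte markers allow a closer look. A range was set, after the clusters had been seen, at 5% or more of a cell's UMIs from the 10 markers, among other epithelial cells. It held 23 adult cells and 12 irradiated cells, with medians of 7.33% and 7.13%, and 12 and 1 cells lay within 1 percentage point of the cut. In those cells Adh6a was at 1436 CPM in the adult and 239 CPM after irradiation, and Rdh7 at 283 and 56.3 CPM. Rbp2 went the other way, at 8127 and 11963 CPM, while Adh1 stood at 316 and 284 and Aldh1a1 at 468 and 253 CPM. Rbp4, mostly endocrine in these libraries, was at 339 CPM (252 UMIs) in the adult and 8.44 CPM (3 UMIs) after irradiation. Adh6a, Rdh7, Aldh1a1 and Rbp4 were thus lower in the irradiated cells of the range, and Rbp2 was higher. The cells of the range are from 1 library each and are not replicates. Their median share of UMIs from tuft markers was 0.0151% in the adult and 0.225% after irradiation, and that from enteroendocrine markers 0.0228% and 0.117%.

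In tuft-like cells 3 of 6 members were at least 2-fold higher after irradiation, beside 25.1% of 11700 genes 2-fold apart, 22% higher and 3.07% lower. They were Rbp4 (log2 ratio 1.47), Aldh1a1 (1.42) and Rbp2 (1.01). The irradiated class held 2 clusters, of 190 and 14 cells, with more enteroendocrine than tuft marker UMIs, 45111 against 4577 CPM in the larger. Adult tuft-like clusters held at most 1257 CPM of enteroendocrine markers, and the third irradiated cluster 1964 CPM. Without the 2 clusters, 274 irradiated cells remained, and none of these 3 members was 2-fold higher. Rbp4 was at 35.6 CPM in the adult and 37.4 after irradiation, Rbp2 at 62.1 and 66.4, and Aldh1a1 at 4.13 and 1.31 (2 UMIs). Adh6a was then at 23.2 and 11.8 CPM, and Adh1 at 1125 and 1581 CPM, a log2 ratio of 0.49. Enterocyte markers summed to 17832 to 32409 CPM in adult tuft-like clusters and to 12786 CPM in the remaining irradiated one, and their part in these values was not tested.

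**Figure D4:**
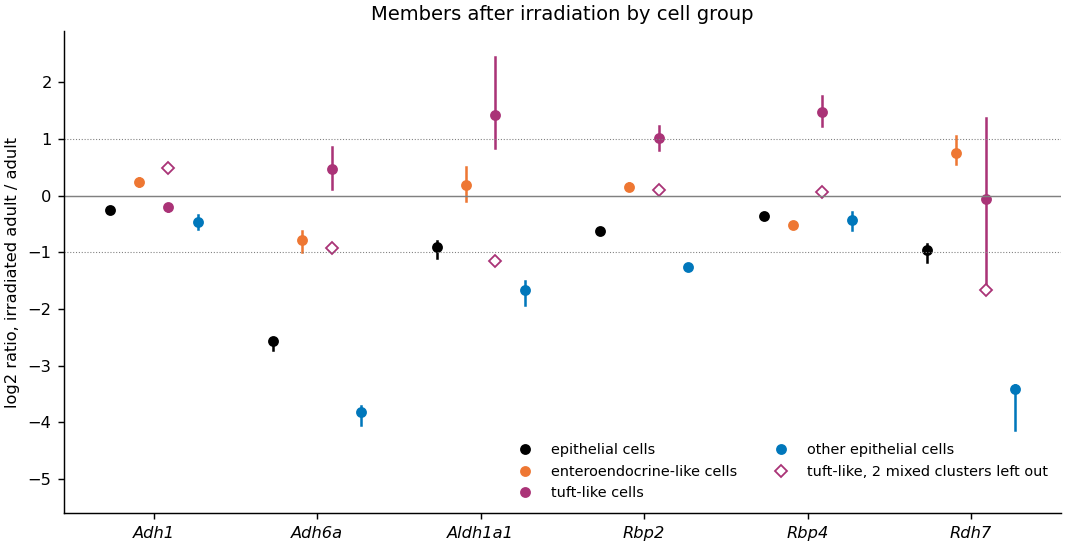
Log2 ratio of irradiated adult over adult for 6 members in all epithelial cells and in 3 cell groups (filled points), with bars for the exact 95% interval of the ratio without the pseudocount; diamonds give tuft-like cells without 2 clusters of mixed markers, and dotted lines mark 2-fold. Adh6a and Rdh7 are lowest in other epithelial cells, at -3.81 and -3.42, and the tuft-like points of Rbp4, Rbp2 and Aldh1a1 above 1 have diamonds near or below 0.

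The wider retinoid pathway, a list of 56 genes including the members, was set beside them by role. Of the other genes, Fabp5 (617 CPM) and Adh5 (276) were among the most abundant at E12.5, Ttr (636), Fabp5 (235) and Dhrs4 (211) led at E17.5, Fabp5 (1258), Ttr (155) and Dhrs4 (139) in the adult, and Fabp5 (1020), Ttr (228) and Adh5 (84.7) after irradiation. At E17.5, set against E12.5, 12 of 42 other pathway genes were at least 2-fold higher and 6 lower, beside 13.5% and 14.6% of all genes. Genes of ester formation were among the higher ones: Lrat from 0.418 to 17.1 CPM, Dgat1 from 10.9 to 88.3 and Dgat2 from 7.23 to 58.3. So were Ttr, whose protein carries Rbp4 in blood (271 to 636 CPM), the carotene-cleaving genes Bco1 (0.469 to 5.41) and Bco2 (0.228 to 4.12), Aldh1a7 (0.747 to 23.5), Cd36 (0.165 to 4.09), Plb1 (0.0507 to 3.17), Ces1d (1.37 to 7.15), Rdh14 (24.4 to 53.2), and Sdr16c5, with 0 UMIs at E12.5 and 27.5 CPM at E17.5. Those lower at E17.5 included the receptors Rarb (30.3 to 0.225 CPM) and Rarg (5.94 to 2.25), Cyp26b1, which breaks down retinoic acid (15.8 to 0.145), Aldh1a2 (2.08 to 0.161), and the carrier Fabp5 (617 to 235). Crabp2 thus shared its E12.5 pattern with Rarb and Cyp26b1.

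From E17.5 to the adult, 8 of 42 other pathway genes were at least 2-fold higher and 6 lower, beside 12.5% and 12.6% of all genes. Ces1f, a carboxylesterase, went from 0.145 to 39.2 CPM, Rbp7 from 0.209 to 34.3, Fabp5 from 235 to 1258, Scarb1 from 13.9 to 58.5, Bco1 from 5.41 to 22.01, Adh7 from 0.966 to 8.79, Adh4 from 0.338 to 3.52 and Rdh12 from 0.483 to 3.42 CPM. Sdr16c5 went from 27.5 to 0.235, Aldh1a7 from 23.5 to 2.78, Ttr from 636 to 155, Dgat2 from 58.3 to 13.6, Isx from 63.1 to 25.3 and Rara from 18.8 to 8.69 CPM. Ttr was, like Rbp4, mostly endocrine, at 2917 CPM in enteroendocrine-like cells at E17.5 and 330 CPM in the adult.

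After irradiation, 8 of 36 other pathway genes were at least 2-fold lower and 1 higher, beside 4.78% and 2.59% of all genes. Ces1f went from 39.2 to 5.01 CPM, Lrat from 9.43 to 0.955, Rbp7 from 34.3 to 6.73, Dgat1 from 98.4 to 36.4, Adh4 from 3.52 to 0.748, Bco2 from 3.66 to 0.981, Dhrs4 from 139 to 58.9 and Dhrs3 from 10.9 to 4.13 CPM. The gene with a higher level was Rarg, from 1.41 to 4.49 CPM. Ces1f was highest in the same adult enterocyte-like cells as Adh6a, at 406 CPM, whereas Rbp7 was highest in crypt stem-like cells, at 116 CPM.

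**Figure D5:**
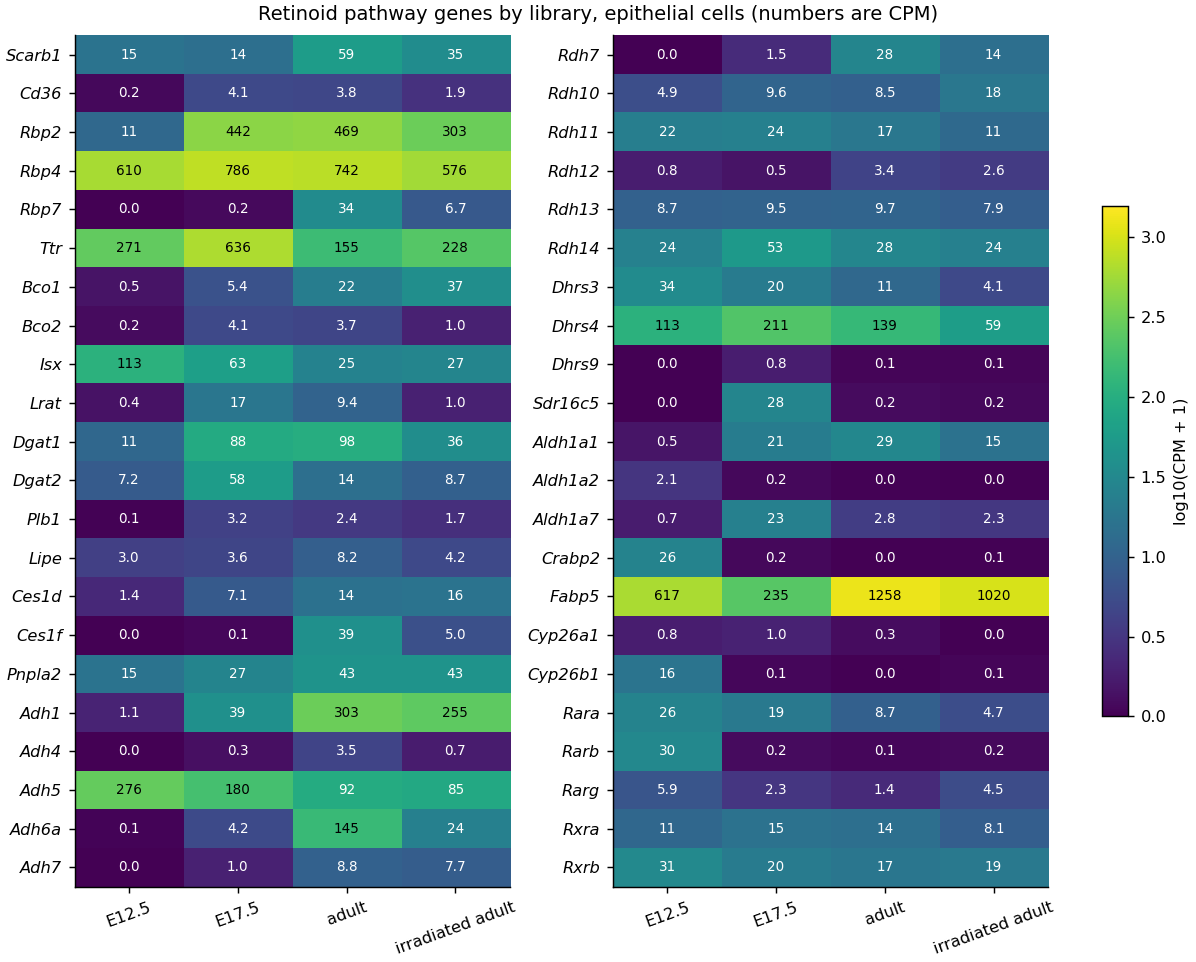
Level of 44 retinoid pathway genes with at least 50 UMIs in a library, over all epithelial cells; the colour is log10(CPM + 1) and the number is the CPM. Rarb, Cyp26b1 and Crabp2 are brightest at E12.5, and Ces1f, Rbp7, Adh6a and Adh1 in the adult.

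The genes most like each member were ranked by Pearson's r of log2(CPM + 10) over the 21 class-by-library groups of at least 50 cells, among 11177 genes. These groups share libraries and depth, so r is a description. Adh6a was closest to Ces2c (0.948), Sowaha (0.943) and Ces2a (0.941), and Rdh7 to Adh6a itself (0.929), Tmem252 (0.910) and Sowaha (0.903). Rbp2 was closest to Ms4a10 (0.931), Gcnt4 (0.922) and Slc27a4 (0.921). Adh1 was closest to Cdhr2 (0.968), Sema4a (0.960) and Optn (0.957), and Rbp4 to Slc29a4 (0.955), Efcab1 (0.932) and Tmem27 (0.921). Crabp2 was closest to Hoxb13 (0.992), Kcnq3 (0.991) and Igdcc3 (0.990). Crabp2 had almost no UMIs in the epithelial cells of the later libraries, so its r rests on few groups. Aldh1a1 had no close partner by this measure, the nearest being Ppargc1a (0.786), Vamp5 (0.785) and Ccdc107 (0.771).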

How the data were processed

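Cells were profiled by droplet sequencing on the 10x Chromium platform (3' ends, chemistry version 3), per the labels' protocols. The authors deposited, per library, a matrix of raw UMI counts per gene and barcode, made with Cell Ranger 3.1.0 on mm10 per the submitters' processing notes. Totals were 90674425 UMIs (E12.5), 77677622 (E17.5), 38648331 (adult) and 50761353 (irradiated adult). The members, the lists of markers and pathway genes and the tests were chosen with earlier results of these data known.

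Barcodes passed with 500 or more genes and no more than 20% mitochondrial UMIs (81.0%, 88.0%, 60.3% and 53.1% of barcodes). Scrublet in scanpy 1.11.5 ranked doublets, and the top 0.8% per 1000 barcodes were removed (153 to 193 cells), since its own threshold called at most 0.565%. Leiden clustering (leidenalg 0.10.2, 2000 variable genes, 30 components, 20 neighbours, resolution 1) ran within each library. Clusters were named for the class whose scaled marker score was highest, if at least 0.5 with 3 markers detected. It stayed unnamed where its top 10 genes held more markers of another class, or where its median UMI count was under the library's divided by 3 with no own marker among them. This scoring was set after the clusters had been seen.

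A cell with at least 3 Tph1 UMIs counted as Tph1-positive, and otherwise took the hormone gene with at least 10 UMIs and 2 times the next. Genes that reached 10 UMIs in 1 of the pair were compared, and 2-fold was the threshold. Classes are ranked by CPM; ranked by thinned shares, Rbp2 after irradiation leads in enteroendocrine-like cells. Shares carry the thinned and the unthinned value. Positions are from GENCODE M21. All members are named, with the other pathway genes that reached 50 UMIs and were 2-fold apart over all epithelial cells, the 3 most abundant other pathway genes per library, and the 3 most alike genes per member. The 2-fold rule also took in the class comparisons, where other pathway genes are left unnamed for length. On simulated counts over 14419 to 15696 genes, 200 genes changed by known folds were all given the right direction. Of those changed 4-fold, 82.0% to 87.5% were called, so the 2-fold counts can miss true changes. The 95% intervals held the true value in 96.0% to 97.0% of the changed genes. The counts were drawn with Poisson error only, as the intervals assume. The simulation therefore checks the calculation and not the spread between libraries. edgeR 4.0.16 supplied TMM factors as an alternative scaling. 1 pathway gene stays in the counts but is neither named nor drawn here. Other alternatives were the cell filter, doublets, pseudocount, UMI minimum and clustering.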

Additional observations from a re-analysis of the deposited data

Results flagged for a closer look

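For 6 members the irradiated library lay above the adult one in 1 cell group and below it in another, with counting intervals on both sides of 0. In each case 1 library stands for a group, and the difference between cell groups was not tested. Values are log2 ratios of irradiated adult over adult. Adh1 was at 0.23 in enteroendocrine-like, -0.21 in tuft-like and -0.46 in other epithelial cells. Adh6a was at 0.47 in tuft-like cells, beside -0.78 in enteroendocrine-like and -3.81 in other epithelial cells. Aldh1a1 was at 1.42 in tuft-like and -1.66 in other epithelial cells. Rbp2 was at 1.01 in tuft-like and 0.16 in enteroendocrine-like cells, and at -1.26 in other epithelial cells. Rbp4 was at 1.47 in tuft-like, -0.52 in enteroendocrine-like and -0.44 in other epithelial cells. Rdh7 was at 0.76 in enteroendocrine-like and -3.42 in other epithelial cells. Without the 2 irradiated tuft-like clusters that held more enteroendocrine than tuft marker UMIs, the tuft-like values were 0.49 for Adh1, -0.92 for Adh6a, -1.15 for Aldh1a1, 0.09 for Rbp2 and 0.07 for Rbp4.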

How the results depend on the processing

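No paired analysis was possible because each group is 1 library with no shared animal in the labels. Of 163 alternative values for the main comparisons, 147 stayed within 1.5 times the main count or within the counting interval. Of 490 values for single members 244 did so, 240 moved and 6 reversed. Over epithelial cells, 1 member was 2-fold apart after irradiation, but 3 with every deposited barcode and 2 with a pseudocount of 0.1 CPM. Adh6a's log2 ratio of -2.57 was -2.09 with the stricter cell filter, -2.49 with TMM factors, -2.20 with a pseudocount of 10 CPM, -1.15 as the mean of each cell's CPM and -1.07 without enterocyte-like clusters. With that pseudocount, pathway genes 2-fold apart after irradiation went from 10 to 5, and between embryonic stages from 24 to 14. In other epithelial cells the count of 4 members was 2 without enterocyte-like clusters, where Rbp2 reversed to 0.54. In tuft-like cells the count of 3 was 1 with doublets kept or a pseudocount of 10 CPM and 0 by the mean of each cell's CPM. Aldh1a1 there reversed to -1.35 with every barcode, -0.64 with doublets kept and -1.15 without the clusters of mixed markers, and Rbp4 to -0.83 with every barcode and -0.96 with doublets kept. The class of highest level held for 2 of 6 members in the adult at resolution 0.5 and 2 with the stricter filter, and for 3 of 6 after irradiation with that filter; no enterocyte-like cluster was named in those libraries under these settings. The cause of the other shifts was not tested. The median log2 ratio of all genes was 0.26 in tuft-like cells by total UMIs and -0.04 with TMM factors, -0.22 and -0.04 in other epithelial cells, and -0.21 and -0.05 between embryonic stages. The alternatives that leave clusters out, or keep first names, were chosen after seeing the data. Depth limits low members: at E12.5, 3 UMIs are 0.0380 CPM.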

Other observations

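Bco1, which cleaves beta-carotene to retinal, was an endocrine gene in these libraries. Enteroendocrine-like cells were at 26.2 CPM at E17.5, 48.6 CPM in the adult and 59.4 CPM after irradiation. Fabp5, a carrier of fatty acids and retinoic acid, was highest in the same epithelial class, at 804, 2795 and 2043 CPM. Isx, a homeobox gene that represses Bco1, was at 113 CPM in E12.5 epithelial cells without a lineage and at 87.1, 70.3 and 40.0 CPM in enterocyte-like cells of the later libraries, with goblet-like cells close to the last at 39.3 CPM. Lrat was at 38.0 CPM in E17.5 enterocyte-like cells and, in the adult, at 25.1 CPM in crypt stem-like and 21.3 CPM in enterocyte-like cells.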
